A study of Homo sapiens with 2 samples.

Results

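The 10 genes described here belong to TGF-beta signalling and were taken as a named list: the ligand genes TGFB1, TGFB2, TGFB3 and INHBA, the receptor genes TGFBR1, TGFBR2 and TGFBR3, the signal carrier SMAD3, its inhibitor SMAD7, and the induced matrix gene TGFBI. They are 10 of the 36027 genes counted, and every one of them was detected in both libraries. The cells were SK-N-BE(2)-C, an established human neuroblastoma line, here as its derivative SK-N-BE(2)-C-pIND-HRASV12, which carries HRASV12, a permanently active mutant of the small GTPase HRAS, under a doxycycline-inducible system. The HRASV12 induced library was made after 13 days of doxycycline at 100 ng/ml, and the uninduced control library from the same engineered line left without doxycycline over that time. Both therefore hold the inducible construct and differ in doxycycline itself as well as in HRASV12, so an effect of the drug cannot be told apart from one of the mutant. There was 1 library per condition, so no test was possible and no difference has a replicate check. Whether the engineered line is 1 clone is not stated in the labels.

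TGF-beta ligands are secreted in a latent form, held by binding proteins in the matrix until integrins or proteases release them. The active ligand binds the type II receptor, which recruits and phosphorylates the type I receptor, and the type I receptor phosphorylates SMAD2 and SMAD3, which enter the nucleus with SMAD4. Typical targets are genes of the matrix and the contractile cytoskeleton, along with SMAD7, which shuts the receptors off. The pathway is best known for arresting the growth of epithelial cells and for driving mesenchymal programmes. RAS signalling is known to alter the response of other cell types to TGF-beta. RNA counts show neither ligand activation nor phosphorylation of SMAD proteins.

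Depth per cell was higher after induction, with a median of 111582 counts over 666 cells (80359736 in all), against 85821 over 956 control cells (95350640 in all). No cell barcode was shared between them. Levels are in CPM, a gene's counts scaled by the total of its library. HRAS was at 161 CPM with induction, against 109 CPM without, a value that pools the native gene with any transgene transcript sharing its 3' end. The neuroblastoma marker list (9 genes, among them PHOX2A, MYCN and CHGA) summed to 2305 CPM with induction and 2822 CPM without, and 8 of its 9 genes reached 1 CPM in each library. Some induced cells reached low in 2 measures of RNA quality. For mitochondrial percent, the 5th percentile was 1.44 among induced and 8.52 among control cells. For MALAT1, a nuclear RNA, it was 33.6 and 238 CPM. Ratios are therefore also given within a limit that drops any cell below the control 5th percentile in either measure, which left out 260 of 666 induced and 85 of 956 control cells.

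All 10 genes had at least 100 counts over both libraries, the minimum set for counting a gene as measured. In the induced library 5 of them stood 1.5-fold or more above the control (TGFB1, TGFB2, TGFBR2, TGFBI and SMAD3), 2 stood 1.5-fold or more below it (TGFB3 and TGFBR3), and 3 lay between (TGFBR1, INHBA and SMAD7). Over the 19332 genes measured, 10.8% were higher and 15.5% lower by this rule, or 15.3% and 8.35% with DESeq2 size factors in place of library totals. The share of the 10 genes that was lower is near the background by totals, and with TMM or DESeq2 scaling 0 of the 10 were lower. At 2-fold, 3 of the 10 were higher (TGFB2, TGFBR2 and TGFBI) and 0 lower, against 5.17% and 2.85% of genes measured. The median log2 ratio of induced over control was 0.53 for the 10 genes and -0.15 over all genes measured. All intervals given with levels and ratios are exact 95% intervals and cover counting error alone, not variation between cultures.

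**Figure D1:**
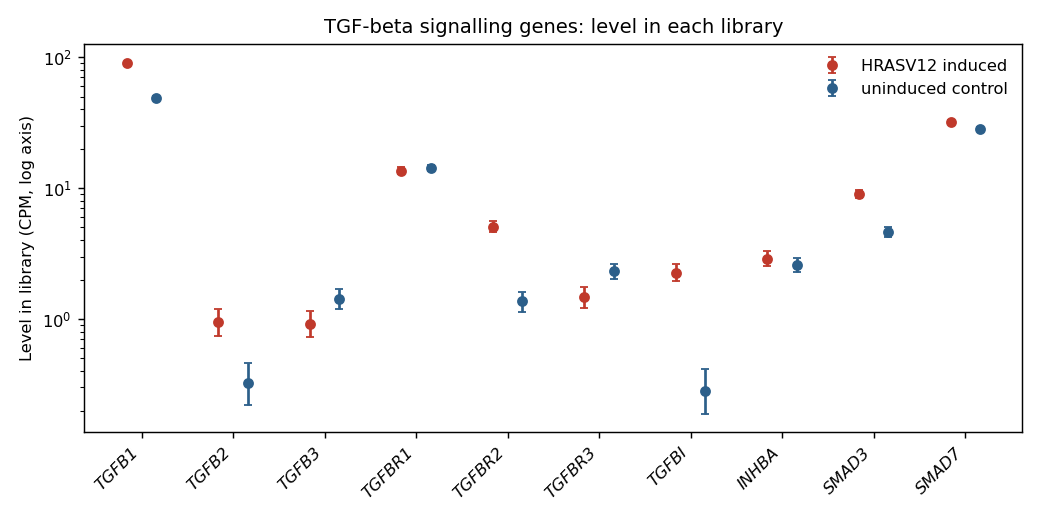
Level of each of the 10 genes (CPM, log axis) in the HRASV12 induced library (red, left) and the uninduced control library (blue, right); bars are exact 95% Poisson intervals of the summed counts. TGFBI shows the widest gap, at 2.26 against 0.283 CPM, and TGFBR1 the narrowest, at 13.6 against 14.2 CPM.

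Among the ligands, TGFB1 was higher in induced cells, TGFB2 was higher from very few counts, TGFB3 was lower and INHBA differed little. TGFB1 (ENSG00000105329.10), the main TGF-beta ligand gene of most tissues, had 7255 counts in the induced library, or 90.3 CPM (88.2 to 92.4). It had 4654 counts in the control library, or 48.8 CPM (47.4 to 50.2). These levels are 1.85-fold apart (1.78 to 1.92). Within the limit on MALAT1 and mitochondrial percent the ratio was 1.67 (1.60 to 1.75). The higher level was spread over many cells, since the 5% of induced cells with the most TGFB1, 34 cells, held 19.9% of its counts. With every cell thinned to 53000 counts, which kept 562 induced and 766 control cells, TGFB1 had at least 1 count in 93.1% of induced cells (90.6 to 95.02) and 84.5% of control cells (81.7 to 87.0). At least 3 counts were found in 70.5% of induced and 45.4% of control cells. Without thinning, the shares with a count were 94.6% and 88.2%. No cell type in these libraries is known to lack the 10 genes, so no share of cells could be set against a background of free RNA.

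TGFB1 lies over genes on the opposite strand, and the sources used here do not say whether strand was used in counting. HNRNPUL1, which overlaps it in the GENCODE 29 annotation, had 6103 counts with induction, against 9833 without, and CCDC97 had 840 and 1257. Both neighbours were thus lower in the induced library, while TGFB1 was higher. TMEM91, another neighbour, had 302 and 264 counts. AC011462.1, the remaining one, was not among the genes counted. TGFB3 likewise overlaps IFT43, a cilium gene with 1704 counts with induction, against 1470 without, so its far lower count is uncertain. INHBA overlaps the antisense gene INHBA-AS1, with 89 and 113 counts against 232 and 247 of INHBA, so its count is uncertain too. SMAD3 also overlaps antisense genes, none of them with more than 28 induced and 40 control counts.

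TGFB2 (ENSG00000092969.12), the ligand gene prominent in the developing nervous system and the eye, had 76 counts in the induced library, or 0.946 CPM (0.745 to 1.18). The control library had 31, or 0.325 CPM (0.221 to 0.461), a ratio of 2.91 (1.89 to 4.57). A count was found in 3.38% of thinned induced cells and 1.70% of thinned control cells, and in 6.61% and 3.24% without thinning. These TGFB2 counts were concentrated: the 34 induced cells with the most held 86.8% of them. TGFB3 (ENSG00000119699.7), the third ligand gene, had 74 counts in the induced library and 136 in the control library. Its levels were 0.921 CPM (0.723 to 1.16) and 1.43 CPM (1.20 to 1.69), a ratio of 0.646 (0.480 to 0.863). TGFB3 was found in 4.63% of thinned induced and 7.83% of thinned control cells, or 8.26% and 12.03% unthinned. INHBA (ENSG00000122641.11) encodes the subunit of activin A, a relative of TGF-beta that signals through activin receptors to the same SMADs. Its 232 induced and 247 control counts gave 2.89 CPM (2.53 to 3.28) and 2.59 CPM (2.28 to 2.93), and the interval of the ratio, 0.928 to 1.34, spans 1. INHBA was found in 11.03% of thinned induced cells and 12.8% of thinned control cells, or 19.4% and 18.5% unthinned.

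**Figure D2:**
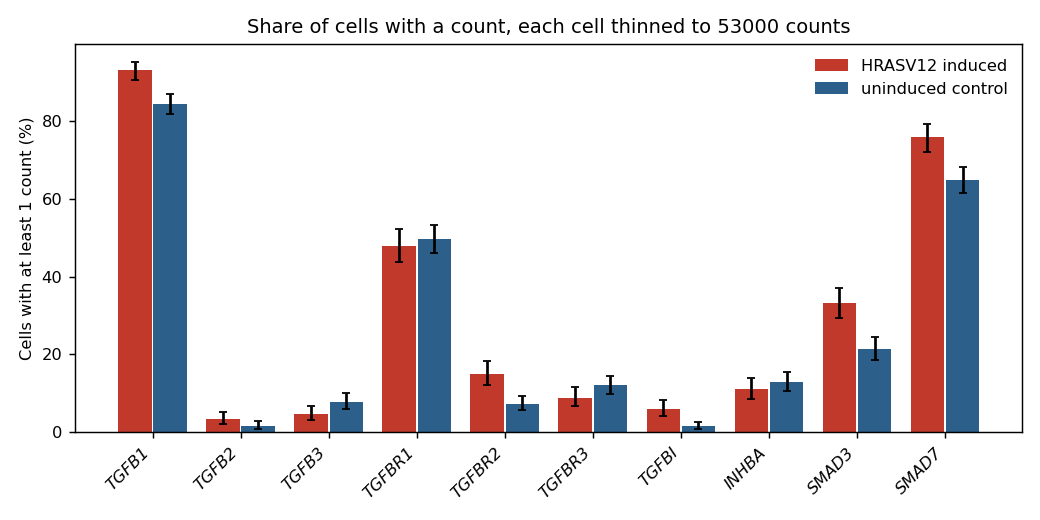
Share of cells with at least 1 count of each gene (%, bars from 0) among 562 induced (red, left) and 766 control cells (blue, right), each cell thinned to 53000 counts; error bars are exact 95% Clopper-Pearson intervals. TGFB1 and SMAD7 were found in most cells, at 93.1% against 84.5% and 75.8% against 64.9%, while TGFB2 and TGFBI were found in fewer than 1 cell in 10 in both libraries.

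The receptor genes differed from each other: TGFBR2 was higher in induced cells, TGFBR3 was lower, and TGFBR1 was level. TGFBR2 (ENSG00000163513.18) encodes the type II receptor, which binds the ligand first. It had 408 counts in the induced library, or 5.08 CPM (4.60 to 5.59), against 130 in the control library, or 1.36 CPM (1.14 to 1.62). The ratio was 3.72 (3.05 to 4.57), and the 34 induced cells with the most TGFBR2 held 56.1% of its counts. A count was found in 14.9% of thinned induced cells (12.1 to 18.2) and 7.31% of thinned control cells (5.57 to 9.39), or 25.2% and 11.5% unthinned. TGFBR1 (ENSG00000106799.13), the type I receptor kinase that passes the signal to SMAD2 and SMAD3, had 1093 counts with induction, against 1358 without. Its levels of 13.6 CPM (12.8 to 14.4) and 14.2 CPM (13.5 to 15.02) gave a ratio of 0.955, whose whole interval, 0.881 to 1.03, lies within 1.5-fold. TGFBR1 was found in 47.9% of thinned induced and 49.6% of thinned control cells, or 69.2% and 66.1% unthinned. TGFBR3 (ENSG00000069702.11) encodes betaglycan, the co-receptor that presents TGF-beta, above all the TGFB2 protein, to the type II receptor. It had 118 counts with induction, against 220 without, which are 1.47 CPM (1.22 to 1.76) and 2.31 CPM (2.01 to 2.63), a ratio of 0.636 (0.504 to 0.800). TGFBR3 was found in 8.90% of thinned induced and 12.01% of thinned control cells, or 14.0% and 16.3% unthinned. Among cells within the limit on MALAT1 and mitochondrial percent the ratio was 0.829 (0.637 to 1.07), no longer past 1.5-fold, and that of TGFB3 was 0.784 (0.559 to 1.09). The part of RNA quality in these lower levels was not tested.

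Counts of both signalling receptors in the same cell were rare in both libraries. TGFBR1 and TGFBR2 were found together in 33 of 562 thinned induced cells, 5.87% (4.08 to 8.15), and in 27 of 766 thinned control cells, 3.52% (2.34 to 5.09). The products of the separate shares, 7.15% and 3.63%, lay within these intervals. TGFBR2 and SMAD3 were found together in 8.72% of induced cells (6.52 to 11.4), above the product of 4.95%, and in 2.87% of control cells (1.81 to 4.32), above the product of 1.57%. A thinned cell held counts of a median of 3 of the 10 genes in either library, and 3 induced and 14 control cells held none. At this depth a missing count does not show that a cell lacks the RNA.

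Of the SMAD genes among the 10, SMAD3 was higher in induced cells and SMAD7 differed little. SMAD3 (ENSG00000166949.16), the transcription factor that carries the signal to the nucleus and binds the sequence CAGAC, had 723 counts in the induced library, or 8.997 CPM (8.35 to 9.68). The control library had 440 counts, or 4.61 CPM (4.19 to 5.07), and the ratio was 1.95 (1.73 to 2.20). SMAD3 was found in 33.1% of thinned induced cells (29.2 to 37.2) and 21.4% of thinned control cells (18.6 to 24.5), or 48.5% and 33.5% unthinned. SMAD7 (ENSG00000101665.9), the inhibitory SMAD that TGF-beta itself induces in many cells, had 2561 counts with induction, against 2687 without. Its levels were 31.9 CPM (30.6 to 33.1) and 28.2 CPM (27.1 to 29.3), 1.13-fold apart (1.07 to 1.19). A SMAD7 count was found in 75.8% of thinned induced and 64.9% of thinned control cells, or 85.0% and 77.2% unthinned. Within the limit on MALAT1 and mitochondrial percent the ratio of SMAD7 was 1.28 (1.20 to 1.36).

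TGFBI (ENSG00000120708.17), a secreted matrix protein named for its induction by TGF-beta, had the highest ratio of the 10 genes from some of the fewest counts. It had 182 counts in the induced library, or 2.26 CPM (1.95 to 2.62), and 27 in the control library, or 0.283 CPM (0.187 to 0.412). The ratio was 7.998 (5.32 to 12.5). Without thinning, TGFBI was found in 11.7% of 666 induced and 1.46% of 956 control cells, and with thinning in 5.87% (4.08 to 8.15) and 1.57% (0.812 to 2.72). Few cells carried it even where it was high: 34 induced cells held 73.6% of its counts there. Within the limit on MALAT1 and mitochondrial percent the ratio was 4.84 (3.02 to 7.96), from fewer than 100 counts, and the part of RNA quality in that difference was not tested. With every cell thinned it was 4.51 (2.54 to 8.46).

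**Figure D3:**
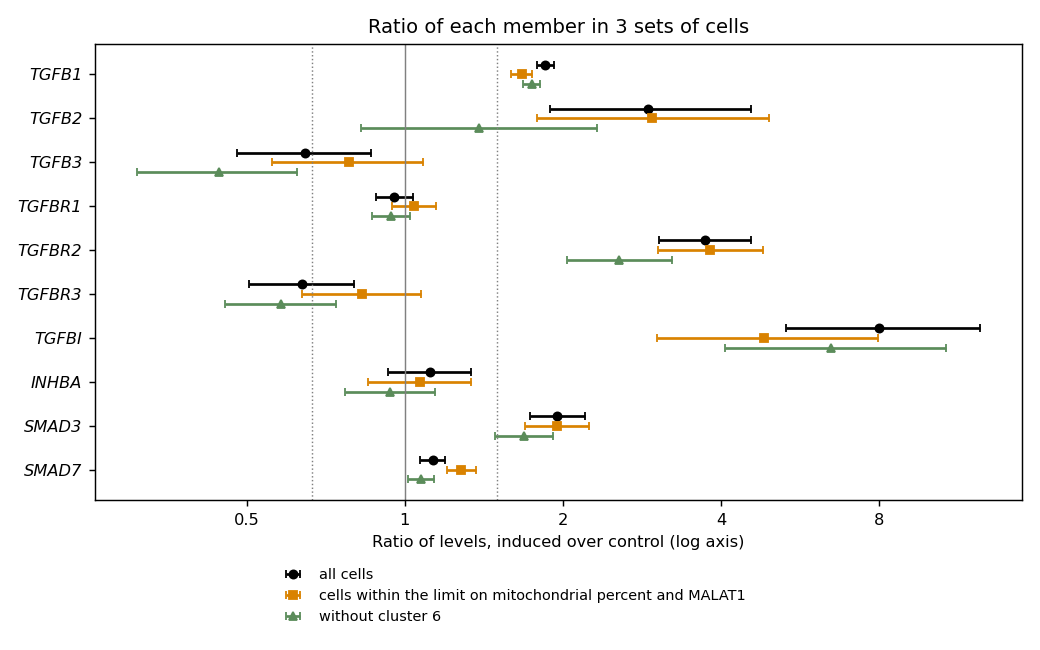
Ratio of the level in the induced over the control library (log axis) for each gene in all cells (black circles), in cells within the limit on mitochondrial percent and MALAT1 (orange squares) and without cluster 6 (green triangles); bars are exact 95% intervals, the solid line marks 1 and the dotted lines 1.5-fold. TGFB1, TGFBR2, TGFBI and SMAD3 lie right of the upper dotted line in all 3 sets of cells, while TGFB2 reaches 1.38 without cluster 6.

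The windows upstream of 4 genes are shown because 3 of them (TGFB1, TGFB2 and TGFBI) were higher in the induced library and SMAD7 is a direct SMAD target that differed little. Each is the 250 bases before a transcription start in RefSeq on GRCh38.p14, which matched all 10 genes, written 5' to 3' along the gene's strand. For SMAD7 it is the first of the 3 starts listed. Capitals mark matches on either strand to any of 4 motifs: TGANTCA (AP-1, a factor downstream of RAS), CAGAC (SMAD), GGAATG (TEAD) and GGGCGG (SP1). No base lay in motifs of 2 kinds. The windows are chr19:41353923-41354172 on the minus strand for TGFB1, chr1:218345086-218345335 on the plus strand for TGFB2, chr5:136028738-136028987 on the plus strand for TGFBI and chr18:48950966-48951215 on the minus strand for SMAD7.
TGFB1: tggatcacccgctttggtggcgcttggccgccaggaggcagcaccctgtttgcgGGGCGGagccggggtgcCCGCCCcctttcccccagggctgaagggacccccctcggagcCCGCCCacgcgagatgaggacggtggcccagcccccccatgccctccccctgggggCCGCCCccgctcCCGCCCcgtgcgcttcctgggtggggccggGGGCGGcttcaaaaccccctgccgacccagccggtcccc
TGFB2: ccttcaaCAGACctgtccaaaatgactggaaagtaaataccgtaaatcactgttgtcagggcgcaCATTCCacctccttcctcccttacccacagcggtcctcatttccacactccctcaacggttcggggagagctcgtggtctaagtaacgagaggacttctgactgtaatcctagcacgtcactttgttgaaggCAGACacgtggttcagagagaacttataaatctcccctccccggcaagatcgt
TGFBI: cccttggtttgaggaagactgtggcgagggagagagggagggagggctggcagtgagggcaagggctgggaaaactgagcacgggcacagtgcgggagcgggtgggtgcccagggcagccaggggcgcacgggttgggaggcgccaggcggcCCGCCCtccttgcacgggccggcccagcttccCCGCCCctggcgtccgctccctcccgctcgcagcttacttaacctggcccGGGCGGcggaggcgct
SMAD7: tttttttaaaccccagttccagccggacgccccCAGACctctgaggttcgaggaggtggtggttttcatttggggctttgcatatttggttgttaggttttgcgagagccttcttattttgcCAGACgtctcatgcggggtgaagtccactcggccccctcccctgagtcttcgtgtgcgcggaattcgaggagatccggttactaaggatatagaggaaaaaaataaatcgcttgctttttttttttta
The TGFB1 window held 6 SP1 motifs and no other, and the TGFBI window 3 SP1 motifs and no other. The TGFB2 window held 2 SMAD motifs and 1 TEAD motif, and the SMAD7 window 2 SMAD motifs. None of the 4 windows held an AP-1 motif. Of the 25 windows of the 10 genes, 1 held it, before the third of the 5 SMAD3 starts listed (chr15:67125492-67125741, plus strand), at 56 bases from that start. Over all 35116 windows of this length, 6.57% held the AP-1 motif, 38.003% the SMAD motif, 11.9% the TEAD motif and 42.6% the SP1 motif, so single matches to the SMAD and SP1 motifs are common. A match here is a run of letters and not evidence of binding.

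Counts of the 10 genes were unevenly spread over groups of like cells. Cells were clustered on variable genes from which the 10 genes and the pathway lists had been left out, which gave 8 clusters, here called by number. Clusters 1 to 4 held mostly control cells, clusters 5, 7 and 8 were nearly all induced, and cluster 6 held 56 induced and 13 control cells. Clusters found almost wholly in 1 library may be that library rather than a type of cell.

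In cluster 6 stood the highest levels of 8 of the 10 genes, all but TGFBR1 and TGFBR3, among groups of at least 10 cells. It held 8.41% of induced cells and 6.87% of induced counts, but 55.3% of the induced counts of TGFB2, 42.9% of TGFBR2, 37.9% of TGFBI and 37.8% of TGFB3. It also held 22.4% of those of INHBA, 21.9% of SMAD3, 13.0% of TGFB1 and 12.9% of SMAD7, against 7.69% of TGFBR1. TGFBR2 stood at 31.7 CPM (27.2 to 36.8) in its induced cells, against 14.2 CPM (7.93 to 23.4) in its control cells, a ratio of 2.24 (1.32 to 4.09). In the 289 induced cells of cluster 8, the most numerous, TGFBR2 stood at 2.49 CPM (2.01 to 3.06). In cluster 6, SMAD3 stood at 28.6 CPM in its induced cells, against 17.0 CPM in its control cells, and TGFB1 at 170 and 87.8 CPM. SMAD7 was high in both, at 60.0 CPM (53.7 to 66.8) in induced and 68.0 CPM (53.2 to 85.6) in control cells. Its few control cells thus also stood above the other control groups in TGFBR2, SMAD3 and SMAD7. These levels depend on the clustering: at a coarser resolution of 0.3 the highest TGFBR2 level of an induced cluster was 6.52 CPM.

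Endothelial markers were high in the same cluster. All 11 of 11 had a count in the induced cells of cluster 6 and 10 of 11 in its control cells, where CLDN5 was at 0. Having a count did not set the cluster apart, since all 11 also had one in the induced cells of cluster 8. Their summed level was 656 CPM in its induced and 762 CPM in its control cells, and between 26.7 and 221 CPM in the other groups of at least 10 cells. EGFL7 alone stood at 191 and 445 CPM in cluster 6. In the control cells of cluster 4, it made up 213 of the 221 CPM. MYCN, an oncogene amplified in many neuroblastomas, stood in this cluster at 414 CPM in its induced cells, against 1196 CPM in its control cells. The cluster was given no cell type name. Without it, TGFB2 had a ratio of 1.38 (0.824 to 2.32) and no longer passed 1.5-fold, and thinned cells with a TGFB2 count were 1.55% of induced and 1.72% of control cells. TGFBR2 then had a ratio of 2.55 (2.03 to 3.22), TGFBI 6.47 (4.07 to 10.7), SMAD3 1.69 (1.48 to 1.92) and TGFB1 1.74 (1.68 to 1.81). TGFB3 then stood further below the control library, with a ratio of 0.442 (0.309 to 0.623).

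**Figure D4:**
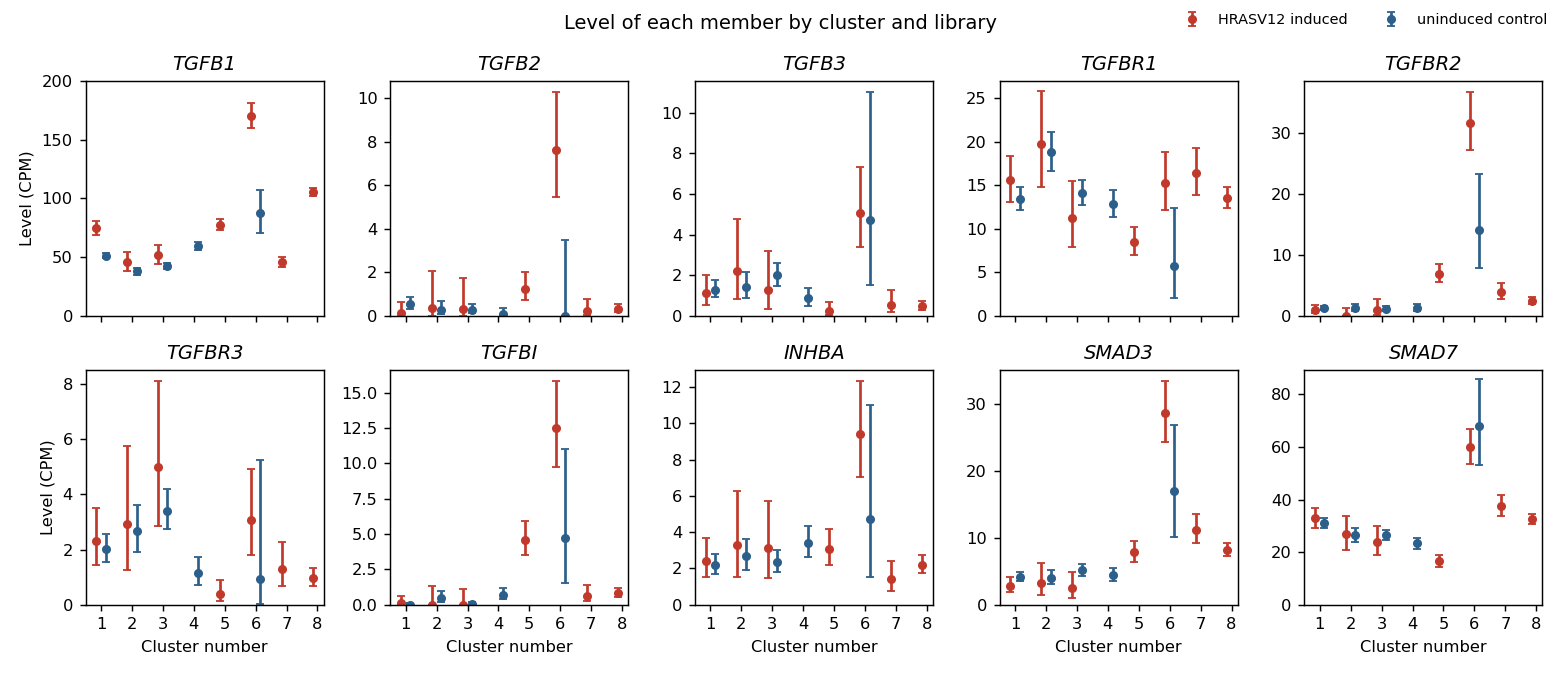
Level of each gene (CPM, each panel with its own axis from 0) by cluster number in induced (red, left) and control cells (blue, right), for groups of at least 10 cells; bars are exact 95% Poisson intervals. In cluster 6 TGFBR2 reached 31.7 CPM in induced and 14.2 CPM in control cells, while TGFBR1 was at 15.2 and 5.66 CPM there.

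Outside cluster 6, induced clusters differed in which genes they held. Cluster 5, with 78 induced cells, had the next highest levels among induced groups of TGFBR2 (6.91 CPM, 5.55 to 8.49) and TGFBI (4.60 CPM, 3.51 to 5.93), but the lowest of SMAD7 (16.6 CPM, 14.4 to 18.9). Its induced cells also had a median mitochondrial percent of 5.95, the lowest of the induced groups of at least 10 cells, and the part of RNA quality in these levels was not tested. Cluster 8 had 105 CPM of TGFB1 (102 to 109), and cluster 7, with 77 induced cells, had 45.4 CPM (41.2 to 50.0). In cluster 7 SMAD3 nevertheless stood at 11.2 CPM (9.16 to 13.6), above the 8.24 CPM (7.34 to 9.23) of cluster 8, so these clusters stood in opposite order for the ligand gene and for SMAD3.

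Some induced cells fell into the clusters that hold most control cells, and there the pattern was narrower. In cluster 1, with 104 induced and 373 control cells, TGFB1 stood at 74.6 CPM (69.1 to 80.4) in induced and 51.2 CPM (48.8 to 53.8) in control cells, a ratio of 1.46 (1.33 to 1.59). SMAD3 stood at 2.85 CPM in its induced cells, against 4.18 CPM in its control cells (ratio 0.682, 0.430 to 1.04), and TGFBR2 at 0.878 and 1.23 CPM (ratio 0.715, 0.289 to 1.55). TGFBI had 1 count in the induced and 0 in the control cells of that cluster. In cluster 2, with 25 induced and 153 control cells, TGFB1 had a ratio of 1.20 (0.981 to 1.46), and in cluster 3, with 30 and 252 cells, one of 1.24 (1.04 to 1.45). SMAD3 had ratios of 0.810 (0.354 to 1.64) in cluster 2 and 0.482 (0.204 to 0.977) in cluster 3. In these 3 clusters TGFB1 thus stood above the control by less than 1.5-fold, with an interval that spans 1 in cluster 2, and SMAD3 did not stand above it.

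Levels were also compared within classes assigned by scoring S and G2M marker genes in each thinned cell, cells high in neither score being called G1. The calls put 356 induced and 164 control cells in G1, 143 and 364 in G2M, and 63 and 238 in S, and cycling was not measured otherwise. TGFB1 was higher in induced cells within each phase, at 105 against 61.7 CPM in G1, 62.0 against 42.0 CPM in G2M and 61.1 against 46.1 CPM in S, with ratios of 1.70, 1.48 and 1.33. TGFBR2 had ratios of 2.01 (1.29 to 3.24) in G1 and 2.21 (1.15 to 4.21) in G2M. SMAD3 had ratios of 2.29 in G1 and 2.20 in G2M, but 1.05 (0.624 to 1.71) in S. TGFBR3 differed little within phases, with ratios of 1.17 in G1, 1.02 in G2M and 0.944 in S, each with an interval that spans 1. Over all thinned cells, the set split here, its ratio was 0.760 (0.542 to 1.06), which also spans 1. That of TGFBR2 was 2.81 (2.07 to 3.85) over the same cells. Phase calls also read free RNA, whose part was not tested.

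The number of HRAS counts in a cell did not order TGFB1. Among induced cells with 0 to 3, 4 to 9 and 10 or more thinned HRAS counts, TGFB1 stood at 88.1, 89.2 and 89.6 CPM, and among control cells at 45.3, 49.5 and 39.97 CPM. TGFBR2 stood at 10.1, 3.75 and 3.32 CPM in the same induced groups and at 2.01, 1.32 and 2.23 CPM in the control groups. SMAD3 stood at 10.9, 9.53 and 9.33 CPM, against 4.82, 4.96 and 6.21 CPM. VIM, which encodes vimentin, a filament protein of mesenchymal cells, was at 1510 CPM with HRASV12 induced, against 182 CPM uninduced. Cells were therefore also split into ranges of VIM, chosen after seeing the data: up to the control median of 1 thinned count, above it up to 48.5, the control 95th percentile, and above that. In the highest range TGFBR2 was at 6.87 CPM over 305 induced cells, against 5.81 CPM over 39 control cells, a ratio of 1.18 (0.651 to 2.36), and at 1.83 and 1.55 CPM in the middle range, a ratio of 1.18 (0.639 to 2.16). TGFB1 was still higher in induced cells within the highest range, at 101 against 74.0 CPM (ratio 1.36, 1.15 to 1.62), and within the middle range, at 78.2 against 48.6 CPM (ratio 1.61, 1.46 to 1.77). In the lowest range TGFBR2 had 0 counts over 41 induced cells and 24 counts over 386 control cells. TGFB1 was at 61.7 against 43.8 CPM there, a ratio of 1.41 (1.16 to 1.69). VIM itself was at 2585 CPM in induced and 2129 CPM in control cells of the highest range. In the middle range it was at 415 and 209 CPM, so the ranges do not equalise VIM. These are ranges and not cell types, and 91 induced and 33 control cells lay within 20% of the upper bound.

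How many genes followed the 10 across cells was not counted. Over the 562 thinned induced cells, 3 of the 10 genes had enough counts to be compared with the 5173 genes of at least 25 CPM. For TGFB1 the genes most like it were RNF7, a ubiquitin ligase subunit, with a Pearson correlation of 0.45 on the log2(count + 1) scale, SH3BGRL3 with 0.43 and TMSB10, an actin-binding protein, with 0.39. BMPR2, the type II receptor for BMP ligands, was the 1 gene to reach 0.3 with SMAD7, at 0.32. None reached 0.3 with TGFBR1. All cells share 1 library, and the values describe it.

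Beyond the 10 genes, 127 other genes of the pathway were in the table, in 6 lists by role, and 109 of them had at least 100 counts. Of these, 40 were higher and 6 lower by 1.5-fold or more, against the background of 10.8% and 15.5%. The median log2 ratio was 0.21, against -0.15 over all genes measured. Genes upstream in the pathway and its targets did not look alike: 23 of the 40 higher genes were on the list of targets.

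Of 38 measured targets, 23 were higher and 1 was lower, with a median log2 ratio of 1.05. Over all genes measured, 10.8% were higher and 15.5% lower, with a median of -0.15. This list, like the others, was chosen with earlier results of these data known. TAGLN, a protein of the contractile cytoskeleton, stood at 12.7 CPM with HRASV12 induced, against 0.367 CPM uninduced, a ratio of 34.6 (24.7 to 49.9). Cluster 6 held 50.6% of the induced TAGLN counts. Without that cluster, TAGLN stood at 6.73 CPM in the other induced cells, against 0.0742 CPM in the other control cells, a ratio of 90.7. That control level is close to the floor of 3 counts, 0.0315 CPM, so the size of this ratio is uncertain. The whole control library had 35 TAGLN counts, in 9 cells, and 34 induced cells held 81.6% of the induced counts. Within the limit on MALAT1 and mitochondrial percent the ratio of TAGLN was 19.8. Not every target was higher. The 1 lower target was SNAI1, at 2.49 CPM with HRASV12 induced, against 7.20 CPM uninduced (ratio 0.345, 0.294 to 0.405). JUNB, an AP-1 subunit, stood at 91.7 CPM with HRASV12 induced, against 128 CPM uninduced (ratio 0.714). VEGFA, an angiogenic factor, stood at 65.4 and 88.1 CPM (ratio 0.742). Neither JUNB nor VEGFA passed 1.5-fold. Without cluster 6, 20 of 37 measured targets were higher and 2 lower, with a median log2 ratio of 0.66. Of all genes measured, 10.0% were then higher and 17.4% lower. Within the limit on MALAT1 and mitochondrial percent the counts of targets were 23 and 2 of 38, against 9.94% and 5.61% of all genes measured. Many of these targets also respond to other pathways, and VIM is among them. The list of fibroblast and pericyte markers shares COL1A1 and COL1A2 with the targets. It stood at a sum of 3602 CPM with induction and 2595 CPM without, nearly all of it RGS5. All 8 of its genes had counts in both libraries. LUM was at 64.5 and 18.5 CPM, COL1A1 at 5.65 and 2.22 CPM, COL3A1 at 4.02 and 1.66 CPM, and DCN at 3.21 and 1.14 CPM, whereas PDGFRB was lower, at 6.46 and 16.3 CPM. PDGFRA and COL1A2 were under 1 CPM in both. Their part in the result on targets was not tested.

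Of 16 genes of ligands, latency and activation, 6 were higher, 1 was lower and 9 lay between, with a median log2 ratio of 0.07. Over all genes measured, 10.8% were higher and 15.5% lower. At 2-fold, 4 of the 16 were higher, against 5.17% of all genes measured, and each of these 4 had fewer than 1000 counts. FURIN, the protease that cuts the ligand precursor, stood at 23.4 CPM with HRASV12 induced, against 13.9 CPM uninduced (ratio 1.68, 1.56 to 1.80). ITGB1, an integrin subunit, stood at 297 and 178 CPM (ratio 1.67, 1.63 to 1.70). ITGB5, a subunit of a latent TGF-beta activating integrin, was lower, at 20.1 and 46.8 CPM (ratio 0.429, 0.405 to 0.454). THBS1, an activator of latent ligand, stood at 6.88 and 7.63 CPM. Without cluster 6, 2 of 14 were higher and 1 lower, against 10.0% and 17.4% of all genes measured. FURIN and ITGB1, with ratios of 1.44 and 1.49, then no longer passed 1.5-fold.

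Of 12 other receptor genes, 3 were higher and 1 lower, against 10.8% and 15.5% of all genes measured. Their median log2 ratio was 0.10. ACVR1, a type I receptor for BMP and activin ligands, stood at 12.3 CPM with HRASV12 induced, against 5.79 CPM uninduced (ratio 2.12, 1.91 to 2.35). NRP1, a co-receptor, stood at 57.4 and 38.8 CPM (ratio 1.48). ACVR2B, an activin type II receptor, was lower, at 21.1 and 38.2 CPM (ratio 0.553, 0.522 to 0.586), and ACVR1B, an activin type I receptor, stood at 21.3 and 28.1 CPM. Receptors without cluster 6 again had 3 higher and 1 lower, of 11 measured, against 10.0% and 17.4% of all genes measured.

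The SMADs and their cofactors had the fewest genes past 1.5-fold, with 1 of 14 higher and 0 lower. Their median log2 ratio of -0.22 was the lowest of the lists. Over all genes measured, 10.8% were higher and 15.5% lower, with a median log2 ratio of -0.15. The 1 higher gene was SMAD1, which carries BMP signals, at 36.4 CPM with HRASV12 induced, against 23.5 CPM uninduced (ratio 1.55, 1.47 to 1.64). Its relative SMAD5 stood at 55.1 and 77.4 CPM (ratio 0.712), SMAD9 at 79.2 and 82.3 CPM, and the general factor SP1 at 16.6 and 24.5 CPM (ratio 0.679). In the BMP arm, which shares SMAD1, SMAD5 and SMAD9, 3 of 13 were higher and 1 lower, with a median log2 ratio of -0.05. NBL1, a secreted BMP antagonist, stood at 14.0 and 7.72 CPM (ratio 1.81), and ID2, a BMP target, at 249.5 and 347 CPM (ratio 0.719).

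Among inhibitors, 6 of 20 were higher and 2 lower, against 10.8% and 15.5% of all genes measured. Their median log2 ratio was 0.23. PMEPA1, a TGF-beta induced protein that holds back SMAD signalling, stood at 39.6 CPM with HRASV12 induced, against 22.4 CPM uninduced (ratio 1.77, 1.68 to 1.87). FSTL1, a secreted follistatin relative, stood at 10.4 and 3.84 CPM (ratio 2.70, 2.38 to 3.06). Its ratio was 1.74 without cluster 6, which held 52.8% of its induced counts. LDLRAD4, a relative of PMEPA1, was lower, at 4.22 and 8.93 CPM (ratio 0.473, 0.416 to 0.537), as was TGIF2, a corepressor, at 6.67 and 12.5 CPM (ratio 0.535, 0.483 to 0.593). The inhibitors thus stood on both sides, with PMEPA1 and SMAD7, both of them feedback genes, at 1.77 and 1.13.

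**Figure D5:**
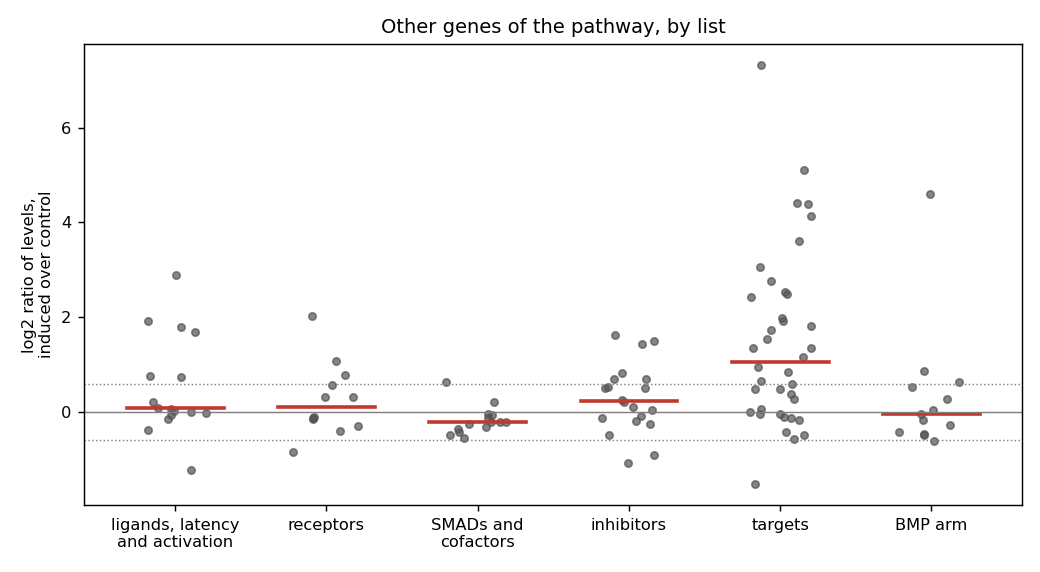
The log2 ratio of induced over control for each of the measured other genes of the pathway (grey points), by list; red bars are list medians, the solid line marks no difference and the dotted lines 1.5-fold. Targets have the highest median, at 1.05, and the SMADs and cofactors the lowest, at -0.22.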

How the data were processed

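Per the labels, 1 induced and 1 control culture each gave a 10x Genomics Chromium 3' library. Kallisto and bustools are named, without versions, in the submitters' processing notes. Neither the genome build nor the annotation nor any use of strand is given in the sources used here. Counts per gene and cell are as the authors deposited them (36027 genes, 70 of them without a count, in 1622 cells). Size factors per cell, a score the authors deposited in the cell annotation, were not used. That annotation gives each cell's condition and percent of mitochondrial counts as the authors computed it and marks all 1622 cells as singlets; its totals differed from the column sums by at most 192. Annotation rows were matched to cells by their order. Per-sample columns left unused numbered 0.

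Counts were summed per library and scaled to CPM. Ratios have no pseudocount. No test was run, since cells are not replicates, and a gene was called at 1.5-fold with at least 100 counts over both libraries. A floor of 10 CPM would have dropped most of the 10 genes. Intervals are exact (Poisson, conditional or Clopper-Pearson, 95%). Where no count was seen, up to 3 counts are allowed (0.0373 CPM for the induced library, 0.0315 CPM for the control). Thinning to 53000 counts left out 104 induced and 190 control cells. Leiden clusters (scanpy 1.11.5, igraph 0.11.9) used 2000 variable genes, 30 components, 15 neighbours and a resolution of 0.5. Phases were scored with scanpy. For alternative scalings, TMM factors were taken from edgeR 4.0.16 and size factors from DESeq2 1.42.0; neither tool ran a test. The calculation was tested on simulated data.

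The 10 genes and all lists were chosen with earlier results of these data known. Named are the 10 genes, the 2 highest and 2 lowest genes of each list with at least 1000 counts, HRAS, VIM and MALAT1 where they bear on a result, and up to 3 genes correlated at 0.3 or more with each of the 10 that had at least 1000 induced counts. Named for overlap or as markers, outside that rule, were HNRNPUL1, CCDC97, TMEM91, IFT43, INHBA-AS1, RGS5, LUM, COL1A1, COL1A2, COL3A1, DCN, PDGFRA, PDGFRB, CLDN5, PHOX2A, CHGA and MYCN. AC011462.1 was also named for overlap, EGFL7 as a marker and SNAI1 as the 1 target lower. Of the listed genes, 2 were not analysed here. Some genes are not reported here. Gene IDs are those of the files; 95.9% matched GENCODE 29 without the version. Alternatives tried were other scalings, cell subsets, pseudocounts, filters, folds, thinning depths and clusterings.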

Additional observations from a re-analysis of the deposited data

How the results depend on the processing

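No paired analysis was possible because each condition has 1 library. None of the ratios of levels of the 7 genes past 1.5-fold changed direction under any alternative run. The share of cells with a TGFB2 count did: without cluster 6 it was 1.55% of induced and 1.72% of control cells. Over all 10 genes, 110 log2 ratios moved by less than their counting interval or not at all, and 21 by more. The 110 include alternatives that changed only which genes were counted as measured and so could not move a ratio. Of the 3 genes between, TGFBR1 had a log2 ratio of 0.09 under DESeq2 scaling and INHBA one of -0.09 without cluster 6. The count of 5 genes higher became 3 with thinning, 3 under the limit on mitochondrial percent and MALAT1, 3 at 2-fold, 2 with at least 1000 counts and 1 at a floor of 10 CPM. With thinning or the limit, TGFB2 and TGFBI fell under 100 counts, but their ratios were 2.41 and 4.51 thinned and 2.95 and 4.84 within the limit. The 2 genes lower, TGFB3 and TGFBR3, lay near 1.5-fold: their count was 0 under TMM and DESeq2 scaling, that limit, thinning, a pseudocount of 1 CPM, a floor of 10 CPM, at least 1000 counts and 2-fold, and 1 with the mean of per-cell CPM, without the 5% of cells with the most counts, and with a pseudocount of 0.1 CPM. Of the 40 other pathway genes higher, 23 were counted at a floor of 10 CPM and 23 with at least 1000 counts. Of the 6 lower, 3 were counted at a floor of 10 CPM and 3 at 2-fold. Floors and subsets test fewer genes. Otherwise the cause was not tested.

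Scaling shifted all genes together. The median log2 ratio over all genes was -0.15 by library totals, -0.04 by TMM, 0.01 by DESeq2 size factors and -0.24 without ribosomal protein and mitochondrial genes. The shares of genes higher and lower were 10.8% and 15.5% by totals, 13.8% and 10.0% by TMM, 15.3% and 8.35% by DESeq2, 9.03% and 21.5% without ribosomal protein and mitochondrial genes, and 9.94% and 5.61% within the limit. The log2 ratio of TGFBI ranged between 1.35 with a pseudocount of 1 CPM and 3.72 with counts capped at the 99th percentile of cells. That of TGFB1 ranged between 0.74 within the limit and 1.05 with DESeq2 size factors. Of the highest levels in an induced cluster at other resolutions, 10 were close to those given and 10 were not, among them 105.5 CPM of TGFB1 at a resolution of 0.3.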
